A study of Mus musculus with 30 samples.

Results

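The histone genes of spermatogonial stem cell (SSC) lines were described, replication-dependent and variant. Members were taken by symbol from a table of RNA abundance: 67 replication-dependent genes (*Hist1*, *Hist2*, *Hist3* and *Hist4* symbols) and 13 variant genes (*H1f*, *H2af* and *H3f3* symbols), together 80 of 13904 genes. SSC lines are cultures of germline stem cells, derived from the testis of young male mice and grown on fibroblast feeders. Both lines carried the *Nanos2*TAG allele, in which a V5, Myc, His and EGFP tag was fused to the RNA-binding protein NANOS2 at its endogenous locus: 1 line was homozygous (Nanos2TAG/TAG) and 1 was heterozygous (Nanos2TAG/+), and neither was a line without the tag. RNA-seq was done on 1 library per line, from total RNA depleted of ribosomal RNA. SLAM-seq, in which RNA is labelled with 4-thiouridine and its loss is followed after the label is withdrawn, was done on 12 libraries per line, and the authors fitted 1 half-life per transcript and line.

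Replication-dependent histone genes supply the bulk of histone protein while DNA is copied. They lie in clusters, mostly lack introns, and their mRNAs end in a conserved stem-loop that is bound by SLBP in place of a poly(A) tail. Variant genes are mostly single genes with polyadenylated mRNAs that are made throughout the cell cycle, and their proteins replace the canonical ones at particular sites or times.

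FPKM (reads per kilobase of gene length and library depth) fitted a depth of 11738620 in the Nanos2TAG/TAG library and 10908790 in the Nanos2TAG/+ library. Both depths were inferred from the FPKM values, as were the reads of each gene, which summed to 11657218 and 10974431, respectively. Differences are given as log2(FPKM + 0.1) in the Nanos2TAG/TAG line minus the Nanos2TAG/+ line, and are counted where the libraries summed to 50 reads or more, which 67 replication-dependent and 11 variant genes passed. With 1 library per line no difference has a replicate check, and no test between the lines was possible. Intervals are 95% exact intervals from the reads and cover counting error only. Genotype, line and extraction reagent (Trizol for the Nanos2TAG/TAG library and QIAzol for the Nanos2TAG/+ library, per the labels) cannot be told apart. *Nanos2* itself was at 23.8 FPKM in the Nanos2TAG/TAG line and 27.5 in the Nanos2TAG/+ line. Of the spermatogonial markers, *Gfra1* was at 111 and 56.2 FPKM and *Zbtb16* at 102 and 107, respectively.

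The stem-loop is what sets both classes of mRNA apart in sequence, so it is shown first. It was searched on the sense strand in the 200 bases of genome (GRCm38) after the stop codon. The search used a fixed pattern of 16 bases, with set bases allowed at each position of the stem (6 base pairs) and loop (4 bases). Pairing itself was not checked, so stem-loops of other sequence were not counted. It was present in 63 of 65 protein-coding replication-dependent members, in 1 of 11 variant members and in 0.313% of 21752 coding genes. The windows below hold the stem-loop in capitals with the flanking bases in lower case. They stand for the form most members have (*Hist1h3b*), the form of most H4 genes (*Hist1h4k*), a form with another loop (*Hist1h3f* and the testis gene *Hist1h2ba*), the replication-dependent genes with a half-life (*Hist1h2ae* and *Hist1h2ao*) and the variant exception (*H2afx*).
Hist1h3b: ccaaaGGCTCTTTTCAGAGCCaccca
Hist1h4k: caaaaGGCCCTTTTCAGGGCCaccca
Hist1h3f: aaaacGGCTCTTTTAAGAGCCacctc
Hist1h2ba: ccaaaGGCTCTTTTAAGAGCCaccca
Hist1h2ae: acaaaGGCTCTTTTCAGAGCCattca
Hist1h2ao: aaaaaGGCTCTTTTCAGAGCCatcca
H2afx: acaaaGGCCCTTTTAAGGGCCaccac

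In GRCm38 the capitals lie at chr13:23752820-23752835 on the plus strand for *Hist1h3b*, chr13:21750150-21750165 on the minus strand for *Hist1h4k*, and chr13:23544932-23544947 on the plus strand for *Hist1h3f*. They lie at chr13:23933730-23933745 on the minus strand for *Hist1h2ba*, chr13:23570668-23570683 on the minus strand for *Hist1h2ae*, chr13:21810898-21810913 on the plus strand for *Hist1h2ao* and chr9:44335240-44335255 on the plus strand for *H2afx*. All follow the stop codon of a coding exon. In *H2afx* the stem-loop began at base 47 after the stop codon, inside an annotated 3′ UTR of 884 bases. *Hist1h4k* has no 3′ UTR in GENCODE M21, whose model ends at the stop codon, and its stem-loop begins at base 29 beyond it.

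The form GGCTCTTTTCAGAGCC was found in 39 members and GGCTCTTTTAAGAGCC in 9, none of them an H4 gene. The form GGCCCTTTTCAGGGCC was found in 8 members, all of them H4 genes. In *H2afx* the stem matched that of most H4 genes and the loop that of *Hist1h3f* and *Hist1h2ba*. No stem-loop was found in this window for *Hist1h2an* or *Hist2h2be*, 2 members named after their result was seen. AATAAA, the poly(A) signal, was within 200 bases of the stop codon on the sense strand in 3 of 65 replication-dependent members, 2 of 11 variant members and 19.9% of all coding genes. The NANOS2 motif in its 4 forms (AUNAANU with G or U at the first N and A or U at the second) was in the same window, searched as DNA, in 4 of 65 replication-dependent members, 0 of 11 variant members and 7.90% of all coding genes. All 4 matches began beyond the stem-loop, at bases 78 to 191 after the stop codon, and so outside an mRNA that ends in it. The window covers only the first part of long 3′ UTRs, such as the 2245 bases of *H3f3a*. These counts therefore do not show which histone mRNAs carry the motif.

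Replication-dependent genes were among the most abundant RNAs of both lines. Their median was 399 FPKM in the Nanos2TAG/TAG line and 312 in the Nanos2TAG/+ line, beside 10.5 and 10.2 over all genes. FPKM of at least 100 was reached by 52 of 67 in the Nanos2TAG/TAG line and 48 of 67 in the Nanos2TAG/+ line. Reads of the 67 genes made up 3.44% of the inferred reads of all genes in the Nanos2TAG/TAG library and 2.39% in the Nanos2TAG/+ library.

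The highest mean of both lines belonged to *Hist1h4k*, at 3515 FPKM in the Nanos2TAG/TAG line and 3448 in the Nanos2TAG/+ line. *Hist1h3b* followed at 3986 and 1647, and *Hist1h2ai* at 3485 and 1501. The next were *Hist1h2bb* at 2453 and 2261 and the linker histone gene *Hist1h1a* at 1941 and 2485. Each of the 5 core and linker families thus had a gene among the first 5, and they differed in how far the lines were apart. The next 5 in order were *Hist1h3i* (3010.4 and 1358 FPKM), *Hist1h2bg* (2399 and 1541), *Hist1h3h* (2441 and 1352), *Hist1h4m* (2057 and 1628) and *Hist2h3b* (2829 and 698).

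Variant genes were lower. Over the 11 that passed the filter their median was 51.7 FPKM in the Nanos2TAG/TAG line and 54.7 in the Nanos2TAG/+ line, so that the median of replication-dependent genes was 7.71 and 5.70 times theirs. With all reads of a gene divided by its coding length alone, these ratios were 7.64 and 5.11. This drops the length of the UTRs but keeps their reads, so it does not take UTRs out of the comparison. The ratio rests on how the classes are summarised: it was 45.9 and 38.2 for summed FPKM, and 2.51 and 2.69 where the class was set by a stem-loop inside the annotated transcript. Summed FPKM was 59348 for replication-dependent and 1293 for variant genes in the Nanos2TAG/TAG line, and 40649 and 1063 in the Nanos2TAG/+ line. *H2afx* alone accounted for 674 of the variant FPKM in the Nanos2TAG/TAG line and 321 in the Nanos2TAG/+ line.

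**Figure D1:**
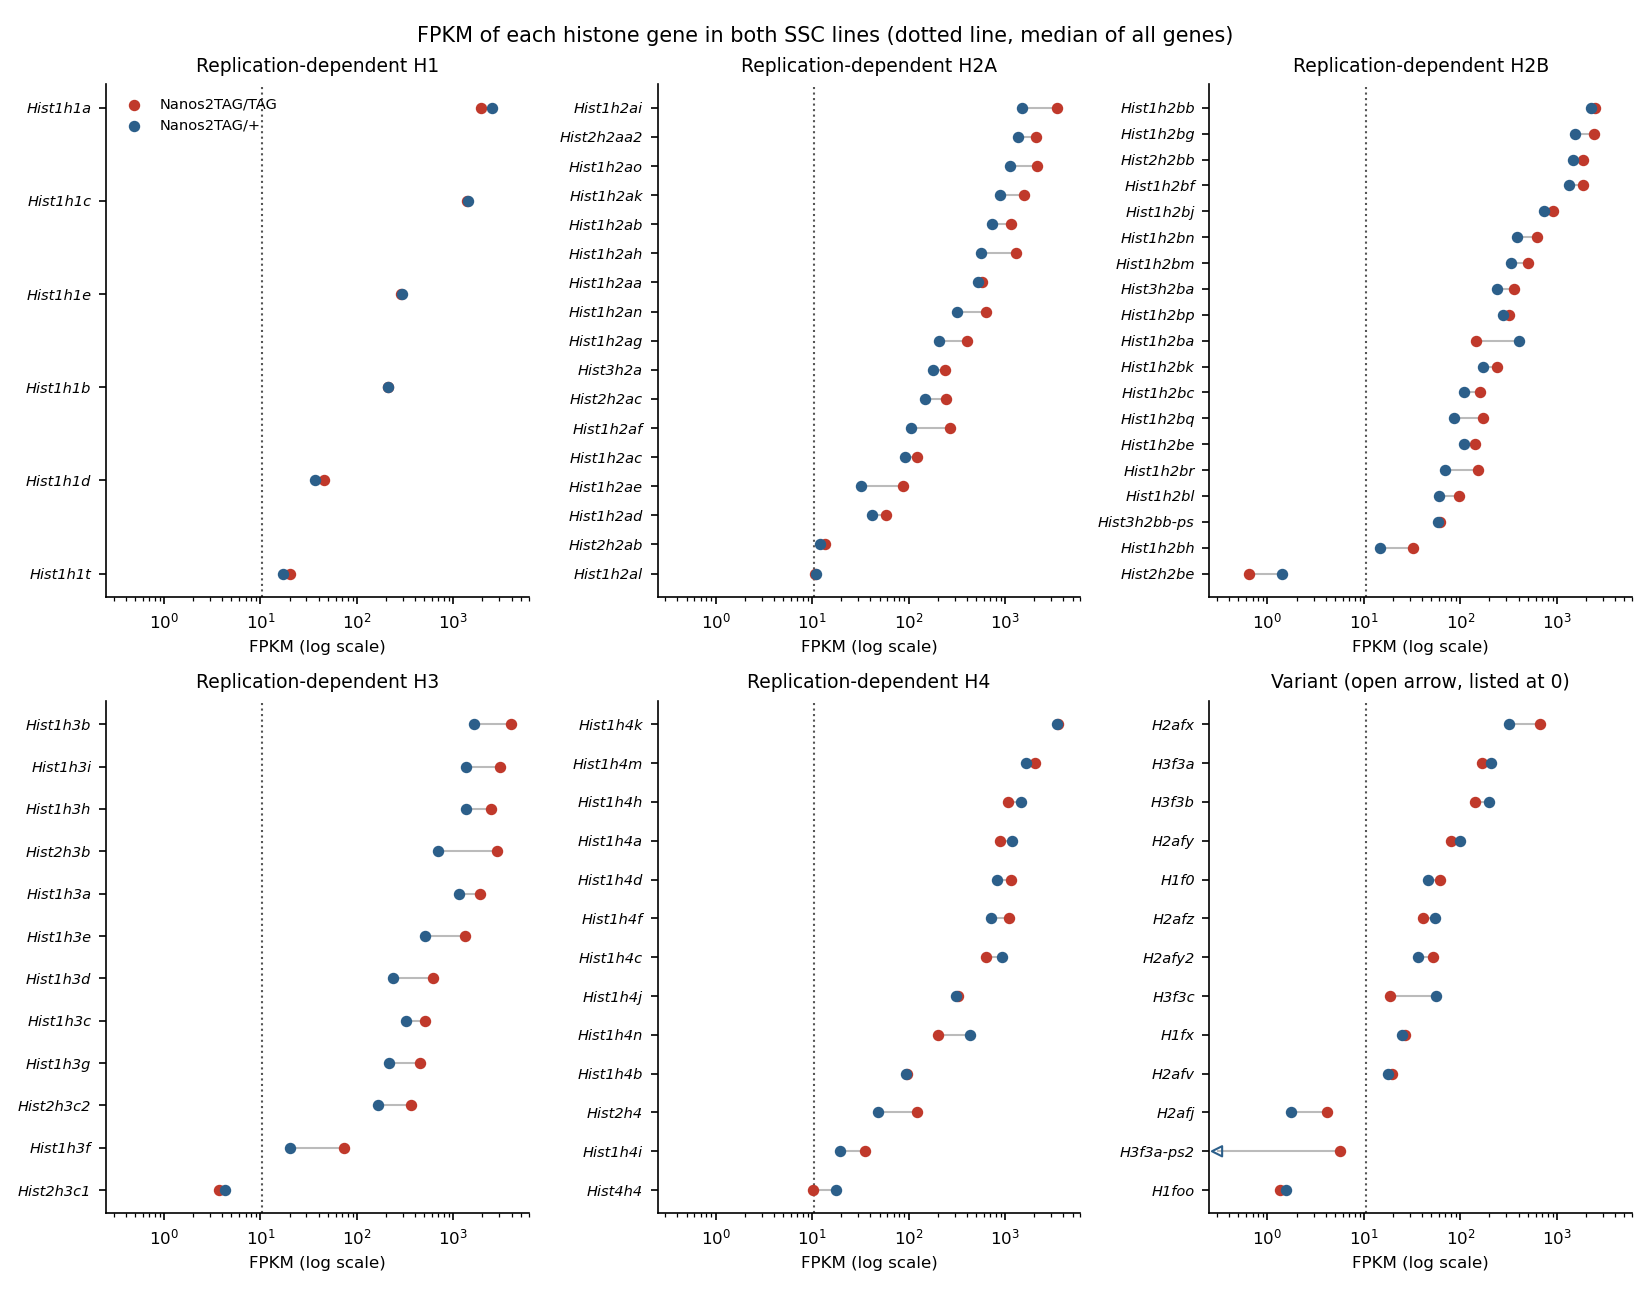
FPKM (x axis, log scale) of each of the 80 histone genes in the Nanos2TAG/TAG line (red) and the Nanos2TAG/+ line (blue), 1 library each, in panels by family and ordered by mean level; the dotted line is the median of all genes in the Nanos2TAG/TAG line, 10.5. Red lies to the right of blue for nearly all H3 and H2A genes, while H1 and several H4 genes have both points together, and the open arrow marks *H3f3a-ps2*, listed at 0 in the Nanos2TAG/+ line.

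Between the lines, replication-dependent genes were more often higher than lower in the Nanos2TAG/TAG line. Of the 67 genes 54 were higher, whereas 50% of all genes were. At least 2-fold higher were 16 (23.9%), beside 10.8% of all 11942 genes tested, and at least 2-fold lower were 2, beside 7.28%. Their median difference was 0.54, and that of all genes was -0.00050. Many members are near-copies that share reads, and among the 34 with at least 50% of 50-base sequences found in no other gene, 5 (14.7%) were at least 2-fold higher, nearer to the share of all genes, and the median difference was 0.34. The summed reads of all 67 genes, near-copies included, were 1.42-fold higher (1.41 to 1.43). Among the 1241 other genes with a mean FPKM of at least 100 the median difference was -0.03. Among the 706 other genes with a mean annotated length under 700 bases that passed the filter it was -0.34. The part of RNA level and gene length in the differences of the histone genes was not tested. In bulk samples, fewer cells of a type and less RNA per cell cannot be told apart, which here holds for cells in S phase as well.

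The difference was unequal across the families. The core histone H3 genes stood highest. Of 12 genes 11 were higher in the Nanos2TAG/TAG line and 8 at least 2-fold (66.7%, beside 10.8% of all genes). Their median was 1.13, and their summed reads were 2.30-fold higher (2.28 to 2.33). *Hist2h3b* differed most of all members, at 2829 FPKM in the Nanos2TAG/TAG line and 698 in the Nanos2TAG/+ line, a difference of 2.02 with an interval of the log2 read ratio of 1.97 to 2.07, although all of its 50-base sequences also occur in another annotated gene. *Hist1h3f* was at 73.0 and 20.1 FPKM, with a difference of 1.85 (interval 1.67 to 2.05). *Hist1h3d* was at 609 and 238 and *Hist1h3e* at 1315 and 514, both with a difference of 1.36. These 4 genes differ widely in level. They were named for their large upward differences, so their shared direction follows from that choice. *Hist1h3e* shares 63.2% of its 50-base sequences with *Hist1h3f*, so the values of these genes are not independent. Of the 12 genes only *Hist2h3c1* was lower, at 3.69 and 4.28 FPKM, and it shared all of its 50-base sequences with another annotated gene.

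H2A genes came next. Of 17 genes 16 were higher and 5 at least 2-fold (29.4%, beside 10.8% of all genes), with a median of 0.72 and summed reads 1.76-fold higher (1.74 to 1.78). *Hist1h2ae* was at 86.4 FPKM in the Nanos2TAG/TAG line and 31.8 in the Nanos2TAG/+ line, a difference of 1.44 (interval 1.23 to 1.66). *Hist1h2ai*, the most abundant of the family, had a difference of 1.21, and *Hist1h2ao*, at 2163 and 1111 FPKM, one of 0.96. H2B genes were higher in 17 of 19 but mostly by less, with a median of 0.49 and summed reads 1.33-fold higher (1.32 to 1.35). At least 2-fold higher were 2 of them (10.5%), close to the 10.8% of all genes. *Hist1h2bb*, their most abundant gene, differed by 0.12.

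H4 and linker histone genes went both ways. Of 13 H4 genes 8 were higher and 5 lower, the median was 0.03, and summed reads were 1.03-fold higher (1.02 to 1.04). At least 2-fold higher was 1 (7.69%) and at least 2-fold lower was 1 (7.69%), beside 10.8% and 7.28% of all genes. *Hist1h4k* differed by 0.03. *Hist2h4*, the 1 H4 gene at least 2-fold higher, was at 121 FPKM in the Nanos2TAG/TAG line and 48.2 in the Nanos2TAG/+ line, a difference of 1.33 (interval of the log2 read ratio 1.21 to 1.44) in a gene with 99.0% unshared 50-base sequences. *Hist1h4n* was at 199.5 FPKM in the Nanos2TAG/TAG line and 434 in the Nanos2TAG/+ line, and *Hist4h4* at 10.2 and 17.7. Of 6 H1 genes 2 were higher and 4 lower, with a median of -0.02, and summed reads were 0.92 times those of the Nanos2TAG/+ line (0.91 to 0.93). *Hist1h1a* was lower by 0.36. As a share of all replication-dependent reads, H3 was 29.2% in the Nanos2TAG/TAG line and 18.01% in the Nanos2TAG/+ line, while H4 was 16.9% and 23.3% and H1 13.6% and 20.95%.

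**Figure D2:**
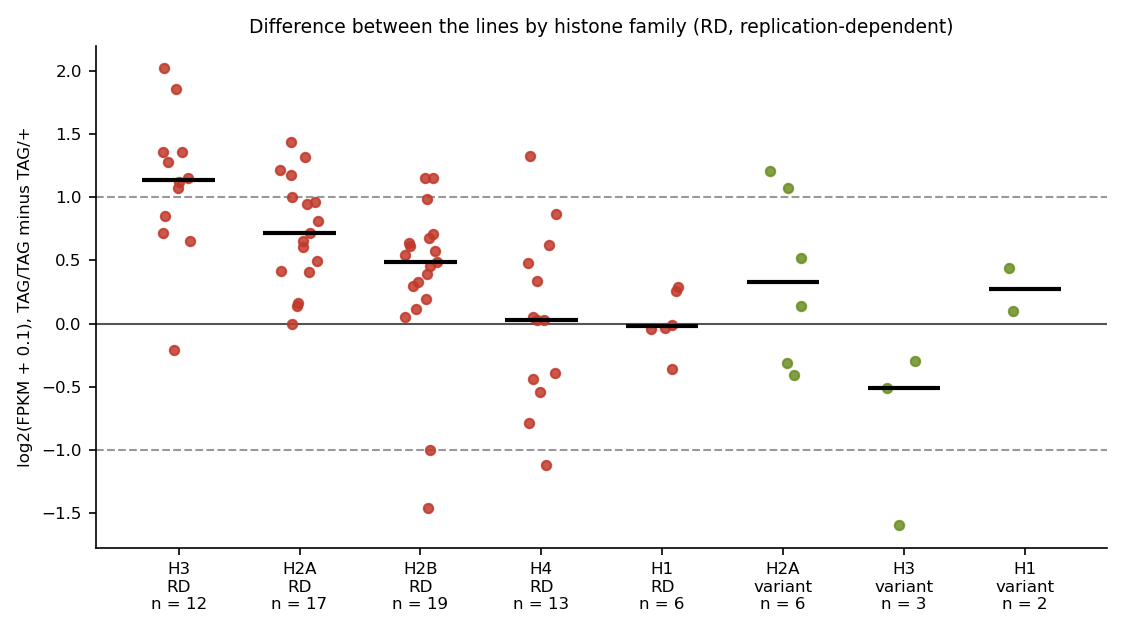
Difference between the lines in log2(FPKM + 0.1) (y axis) for each histone gene that passed the filter, by family and class (x axis), with 1 point per gene, a black bar at the median and dashed lines at 2-fold. The medians run from 1.13 for H3 through 0.72 for H2A and 0.49 for H2B to 0.03 for H4 and -0.02 for H1, and the 3 variant H3 genes lie below 0. Among genes with mostly unshared sequence the medians of H2A and H2B were 0.41 and 0.40.

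H2A and H2B genes lie head to head in pairs that share the bases between their starts, so the same families could be compared within a locus. Among the members there were 12 such pairs, 172 to 305 bases apart. The difference of the H2A gene was larger than that of its H2B partner in 10 of 12, by a median of 0.60. Where both partners had mostly unshared sequence, it was larger in 3 of 4 pairs. These 3 were the testis pair *Hist1h2aa* and *Hist1h2ba* (0.14 and -1.46), *Hist3h2a* with the processed pseudogene *Hist3h2bb-ps* (0.41 and 0.05), and *Hist1h2ae* with *Hist1h2bg*. In *Hist1h2ac* and *Hist1h2bc* it was smaller (0.41 and 0.54). The widest gap of the 12 pairs, 1.72, was that of *Hist2h2ac* and *Hist2h2be*, the latter on 20 and 40 reads. In the pair *Hist1h2ae* and *Hist1h2bg* the differences were 1.44 and 0.64, and in the pair *Hist1h2ao* and *Hist1h2bq* they were 0.96 and 0.99.

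In both blocks of the largest cluster, H3, H2A and H2B genes stood above H4 genes. The *Hist1* genes on chromosome 13 fall into a block from 21715763 to 22043676 with 22 members and another from 23531050 to 23934851 with 31. In the first, the 2 H3 genes had a median difference of 1.00, H2A genes 0.98, H2B genes 0.64 and H4 genes 0.06. In the second, the medians were 1.28 for H3, 0.58 for H2A, 0.49 for H2B and -0.18 for H4. The blocks hold near-copies of each other, so they are not independent. For example, *Hist1h2ah* in the first shares 87.4% of its 50-base sequences with *Hist1h2ad* in the second. The order of H3 and H2A depended on the measure in the first block, where summed reads were 2.01-fold higher for H3 and 2.07-fold for H2A, but not in the second, where they were 2.22-fold and 1.47-fold higher. The 3 H3 genes of the *Hist2* cluster on chromosome 3 had summed reads 3.39-fold higher (3.29 to 3.49), and its 3 H2A genes 1.53-fold (1.49 to 1.57). These intervals do not cover reads shared with genes outside the families, which hold all 50-base sequences of *Hist2h3b*, *Hist2h3c1* and *Hist2h2aa2*.

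Promoters, from 250 bases before to 50 after the start in the RefSeq table, were matched for 71 of 80 members, of which 60 were replication-dependent. CCAAT, searched on both strands, was in 48 of 48 promoters of the H1, H2A, H2B and H3 genes and in 3 of 12 of the H4 genes, beside 37.4% of all promoters in the table. TATAAA was in 34 of the 60 and in 13.6% of all promoters. The octamer ATTTGCAT was in 7 of 16 H2A and 7 of 16 H2B promoters, in 0 of the 28 others of the class, and in 1.74% of all. The windows of head-to-head pairs overlap, so their matches are in part the same bases.

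Many replication-dependent genes are near-copies of each other, and reads from shared sequence cannot be placed on 1 gene. The median share of a gene's 50-base sequences (the read length) found in no other annotated gene was 38.0% for H3 and 32.9% for H2A genes, whereas it was 98.9% for H1. *Hist1h2ao* had 6.50%. Single-gene values are therefore uncertain for these, and sums over a family are steadier only where the sharing stays within the family. All 50-base sequences of *Hist2h2aa2*, *Hist2h2bb*, *Hist2h3b* and *Hist2h3c1* also occur in annotated genes outside it. For *Hist1h2ai*, 53.5% were found in no gene outside its family. *Hist1h4m* and *Hist1h4n*, which share most of their sequence, differed in opposite directions alone, and together their reads were 1.09-fold higher in the Nanos2TAG/TAG line (1.06 to 1.12). For *Hist1h3h* and *Hist1h3i* together the value was 2.01-fold (1.97 to 2.06). Among genes with at least 50% of unshared 50-base sequences, 4 of 4 H3 and 4 of 4 H2A genes were higher in the Nanos2TAG/TAG line, with medians of 1.04 and 0.41. Of 11 such H2B genes 9 were higher, with a median of 0.40, close to that of the H2A genes, so the wider gap between these families over all members was not seen here. The 9 H4 genes had a median of 0.06 and the 6 H1 genes one of -0.02.

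The class holds testis forms with a level of their own. *Hist1h2ba*, which encodes the testis H2B, was at 146 FPKM in the Nanos2TAG/TAG line and 402 in the Nanos2TAG/+ line, the largest difference downward of the class at -1.46 (interval of the log2 read ratio -1.59 to -1.33). *Hist1h2aa*, which encodes the testis H2A and lies head to head with it 305 bases away, was at 571 and 518 FPKM, a difference of 0.14. Both genes of this pair had all 3 of these motifs in the promoter window. *Hist1h1t*, which encodes the testis linker histone of meiotic cells, was at 20.5 and 17.1 FPKM on 219 and 170 reads, and the interval of its log2 read ratio, -0.04 to 0.56, included 0. *Hist3h3* was not listed. *Hist2h2be* was the lowest of the class, at 0.65 and 1.40 FPKM on 20 and 40 reads.

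Among the variants, the genes differed in direction. Of the 11 that passed the filter 6 were higher and 5 lower in the Nanos2TAG/TAG line, with a median difference of 0.10. At least 2-fold higher were 2, beside 10.8% of all genes, and 1 was at least 2-fold lower, beside 7.28%.

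Of the H2A variants, *H2afx* was at 674 FPKM in the Nanos2TAG/TAG line and 321 in the Nanos2TAG/+ line. Its product H2AX is phosphorylated around DNA breaks. The difference was 1.07 (interval of the log2 read ratio 1.02 to 1.12), close to the median of the H3 genes, and it was the only variant member with a stem-loop. *H2afj* was higher by 1.21, but at 4.17 and 1.75 FPKM on 59 and 23 reads. The H2A.Z genes differed in sign: *H2afz* was at 41.3 and 54.7 FPKM (difference -0.40) and *H2afv* at 19.6 and 17.7 (0.14). The macroH2A genes did so too, with *H2afy* at 79.0 and 97.9 FPKM (-0.31) and *H2afy2* at 51.7 and 36.2 (0.52). The intervals excluded 0 for *H2afz*, *H2afy* and *H2afy2*, and that of *H2afv*, -0.13 to 0.42, included it. Without *H2afx*, the summed reads of the other 5 H2A variants were 1.01 times those of the Nanos2TAG/+ line (0.96 to 1.06).

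The H3 variants went the other way from the replication-dependent H3 genes. *H3f3a* and *H3f3b* encode the same replacement histone, which is deposited outside DNA replication. *H3f3a* was at 168 FPKM in the Nanos2TAG/TAG line and 206 in the Nanos2TAG/+ line (difference -0.29, interval -0.38 to -0.20), and *H3f3b* at 140.5 and 199.8 (-0.51, interval -0.58 to -0.43). *H3f3c*, annotated as a processed pseudogene, was at 18.4 and 55.8 FPKM on 89 and 250 reads. *H3f3a-ps2*, another processed pseudogene, was at 5.60 FPKM on 27 reads in the Nanos2TAG/TAG line and was listed at 0 in the Nanos2TAG/+ line. Both share more than 50% of their 50-base sequences with *H3f3a*, and the reads of the 3 together were 0.775 times those of the Nanos2TAG/+ line (0.730 to 0.824).

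Of the H1 variants, *H1f0*, which encodes a replacement linker histone that accumulates in non-dividing cells, was at 62.1 FPKM in the Nanos2TAG/TAG line and 45.7 in the Nanos2TAG/+ line, a difference of 0.44 (interval 0.33 to 0.56). *H1fx* was at 26.5 and 24.7 FPKM, with an interval of the log2 read ratio that included 0 (-0.12 to 0.32). The oocyte linker histone gene *H1foo* was at 1.35 and 1.55 FPKM on 15 and 16 reads, below the filter.

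Half-lives were listed for 9 of the 80 members, 2 of 67 replication-dependent and 7 of 13 variant genes, beside 37.1% of all genes with an FPKM. The gap was also there at like levels. At a mean FPKM of at least 100, 1 of 51 replication-dependent genes had a half-life (1.96%, exact Clopper-Pearson interval 0.0496 to 10.4%), whereas 886 of 1241 other genes did (71.4%, interval 68.8 to 73.9%) and 2 of 3 variant genes. SLAM-seq libraries were made with a kit that primes on poly(A), and the RNA-seq libraries were not, and the part of this in the missing half-lives was not tested. AATAAA or ATTAAA lay in the last 50 bases of an annotated transcript in 17 of 65 coding replication-dependent members, 10 of 11 variant members and 84.6% of 12483 other coding genes. Of the 17, *Hist1h2ae* was listed with a half-life, and of the 48 without such a signal *Hist1h2ao* was. In *Hist1h2ae*, AATAAA began at base 172 after the stop codon, beyond the stem-loop printed above. Among other coding genes with the signal, 4500 of 10559 were listed.

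**Figure D3:**
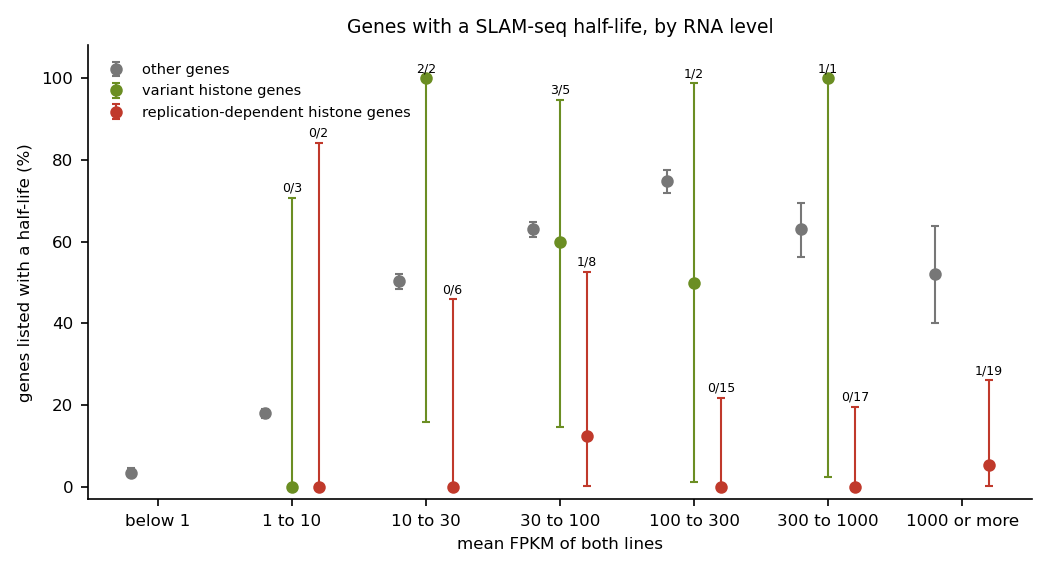
Percent of genes listed with a half-life (y axis) by mean FPKM of both lines (x axis, binned) for replication-dependent histone genes (red), variant histone genes (green) and all other genes (grey); bars are 95% exact binomial intervals, and the numbers are genes listed over genes in the bin. Other genes pass 50% from an FPKM of 10 upward, and replication-dependent genes stay at 0 or 1 per bin.

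The listed replication-dependent mRNAs had half-lives below the median of all 5806 transcripts, which was 226 min in the Nanos2TAG/TAG line and 224 min in the Nanos2TAG/+ line. *Hist1h2ae* was listed at 178 min in the Nanos2TAG/TAG line and 210.2 min in the Nanos2TAG/+ line, and *Hist1h2ao* at 204 and 221 min. *Hist1h2ap*, a near-copy of *Hist1h2ao* that fits the symbols but has no FPKM, was listed at 174 and 215 min. All 3 are H2A genes, and each was below the median in both lines, but only by little in the Nanos2TAG/+ line. Among all transcripts they stood at percentiles 30.2 to 41.4 in the Nanos2TAG/TAG line and 44.0 to 48.7 in the Nanos2TAG/+ line. *Hist1h2ao* shares 93.5% of its 50-base sequences with *Hist1h2ap*, so their values are not independent. The libraries were primed on poly(A), so these half-lives may not cover mRNAs that end in the stem-loop. No error or depth came with the half-lives, so the size of a difference between the lines could not be set against an error.

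Variant mRNAs spanned the scale. *H2afy* was listed at 643 min in the Nanos2TAG/TAG line and 509 min in the Nanos2TAG/+ line, and *H2afv* at 584 and 573 min, both above 95% of all transcripts. *H2afz* was at 445 and 299.9 min, *H1fx* at 303 and 341 min, and *H2afx* at 292 and 262 min. These 5 of the 9 listed members were above the median in both lines, beside 39.8% of all transcripts. *H3f3b* was at 223 and 283 min, on either side of it. *H1f0* had the shortest half-life of the listed members in the Nanos2TAG/TAG line, 153 min, and was at 234 min in the Nanos2TAG/+ line.

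Between the lines, 0 of 9 listed members had a half-life at least 1.5-fold longer in the Nanos2TAG/TAG line, beside 10% of all transcripts, and 1, *H1f0*, was at least 1.5-fold shorter, beside 10.7%. The ratio was 0.652 for *H1f0* and 1.48 for *H2afz*, and 0.790 to 1.26 for the other 7. RNA level and half-life differed in opposite directions in 6 of 9: *H1f0*, *H1fx*, *H2afy*, *H2afz* and both replication-dependent genes. The share, 66.7%, stands beside 50.4% of 5152 genes with both values, and nothing is read from it on 9 members. In *H2afx*, with a higher level of 1.07 on the log2 scale, the half-life was 1.11-fold longer in the same line.

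**Figure D4:**
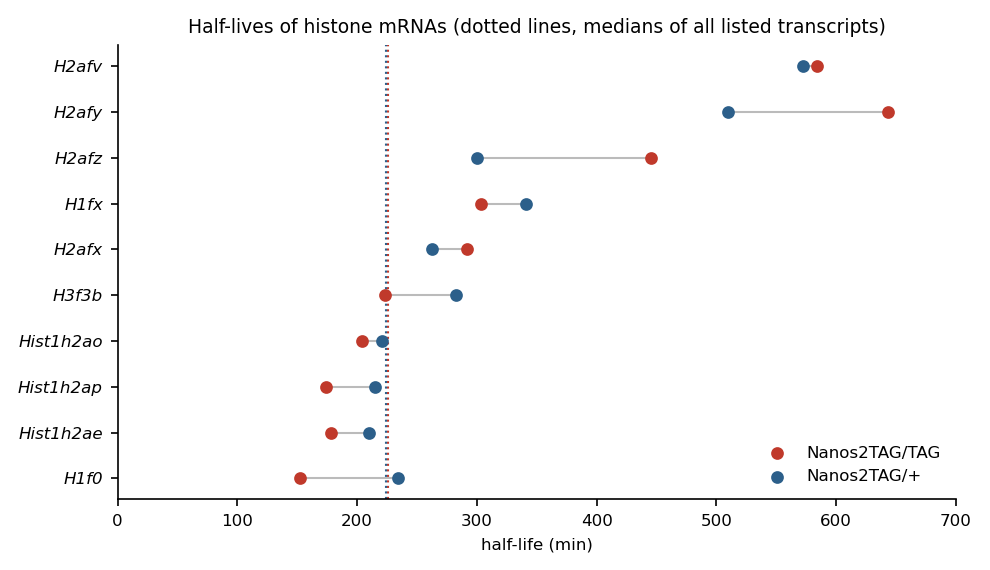
Half-lives in minutes (x axis) of the 9 listed members and of *Hist1h2ap* (y axis) in the Nanos2TAG/TAG line (red) and the Nanos2TAG/+ line (blue), 1 fitted value each, with the medians of all transcripts as dotted lines at 226 and 224 min. The H2A genes of the replication-dependent class lie to the left of the medians, and *H2afv* and *H2afy* lie farthest to the right.

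Genes that make or break down the stem-loop end did not share the shift. Of 28 genes for histone mRNA processing and turnover with an FPKM, 11 were higher and 17 lower in the Nanos2TAG/TAG line, beside 50% of all genes higher. Their median difference was -0.13. At least 2-fold higher were 0 and at least 2-fold lower was 1 (3.57%), beside 10.8% and 7.28% of all genes. *Slbp*, which encodes the stem-loop-binding protein, was at 123 FPKM in the Nanos2TAG/TAG line and 106 in the Nanos2TAG/+ line. *Npat*, the transcriptional coactivator of histone genes, was at 39.5 and 48.4 FPKM, and *Casp8ap2*, a cofactor of histone mRNA cleavage, at 18.1 and 16.8. The U7 particle genes *Lsm10* (21.02 and 22.9 FPKM) and *Lsm11* (3.55 and 4.49), its partner *Zfp473* (4.63 and 5.70) and the 3′ exonuclease gene *Eri1* (7.71 and 9.06) were all slightly lower. The widest differences were those of the uridylyltransferase gene *Tut7* (0.70) and the cyclin gene *Ccne2* (0.69) upward, and of the cleavage factor gene *Cpsf2* (-0.80) and the cap-binding gene *Ncbp2* (-1.19) downward.

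Histone chaperone and deposition genes were likewise near the middle of all genes. Of 29 with an FPKM 10 were higher and 19 lower, with a median of -0.11, beside 50% of all genes higher. At least 2-fold higher was 1 (3.45%) and at least 2-fold lower was 1 (3.45%), beside 10.8% and 7.28% of all genes. The H3 and H4 chaperone genes *Asf1b* and *Nasp* were at 273 and 241 FPKM and at 18.3 and 19.2, respectively. *Chaf1a*, *Hira* and *Daxx* were not listed. At the ends of the list were *Hjurp*, the loader of the centromeric H3 (203 and 99.2 FPKM, difference 1.03), and *Tonsl*, a reader of newly made H4 (0.94), and, lower in the Nanos2TAG/TAG line, *Npm1* (-0.73) and *Anp32e*, the H2A.Z chaperone (-1.13).

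S phase genes other than histones were mostly higher, by less. Of 34 genes 27 were higher in the Nanos2TAG/TAG line, beside 50% of all genes, and 0 were at least 2-fold higher or lower. Their median difference was 0.23, and their summed reads were 1.17-fold higher (1.16 to 1.18), a value between that of the H4 and the H2B genes. Of the cell type lists, fibroblast feeder markers were higher in 12 of 14, with a median of 0.54 and a summed level of 438 FPKM in the Nanos2TAG/TAG line and 363 in the Nanos2TAG/+ line. *Fn1* alone accounted for 280 and 254 FPKM of these sums and differed by 0.14. At least 2-fold higher were 4 of the 14 markers (28.6%, beside 10.8% of all genes), and 0 were at least 2-fold lower (beside 7.28%). None of the 14 was listed at 0, and *Lum*, *Acta2* and *S100a4* were not listed. According to the labels the SSCs were depleted from feeders before RNA extraction, whereas the study's methods describe sorted SSCs. The 13 markers of undifferentiated spermatogonia went both ways, 5 higher and 8 lower with a median of -0.14, but their summed reads were 1.28-fold higher (1.26 to 1.30). *Etv5* was at 178 and 46.0 FPKM (difference 1.95) and *Ret* at 181 and 73.2 (1.30). The 7 markers of differentiating spermatogonia had a median of -0.34. Of the 12 markers of meiotic and later germ cells 3 were listed, with a summed level of 25.5 and 26.6 FPKM. Of these, *Sycp3* was lower in the Nanos2TAG/TAG line, at 0.63 and 4.59 FPKM on 8 and 54 reads (difference -2.68), the same direction as the testis gene *Hist1h2ba*, whereas *Sycp1* (0.22) and *Hormad1* (0.11) were slightly higher. The part of S phase cells, feeder cells and germ cell stages in the differences of the histone genes was not tested.

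**Figure D5:**
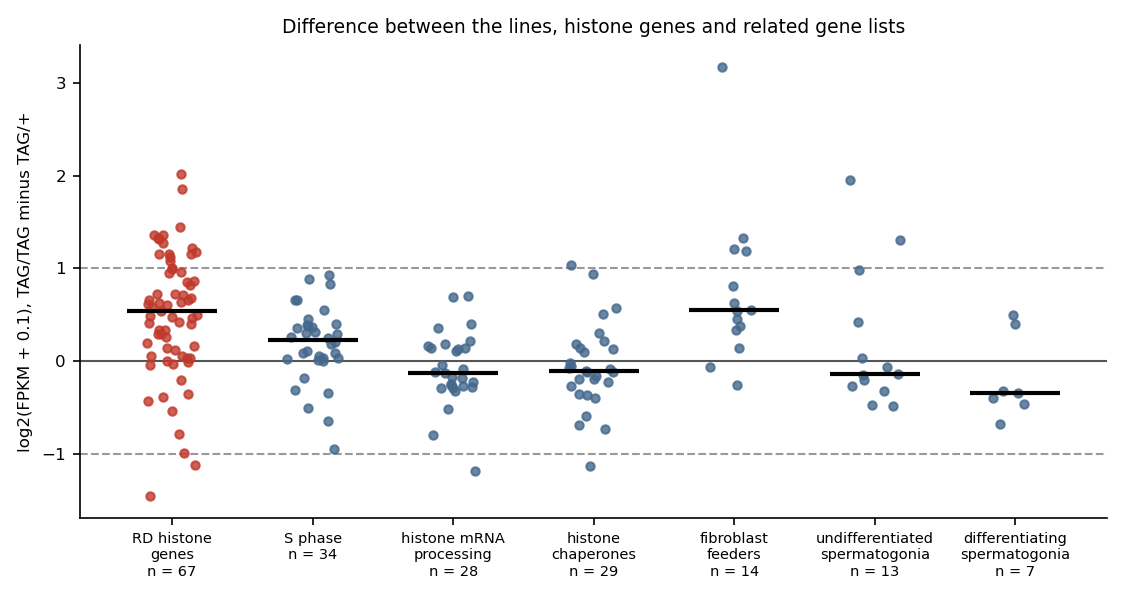
Difference between the lines in log2(FPKM + 0.1) (y axis) for the 67 replication-dependent histone genes (red) and for 6 gene lists (blue), with 1 point per gene, a black bar at the median and dashed lines at 2-fold. The medians are 0.54 for the histone genes, 0.23 for S phase genes and 0.54 for feeder markers, and lie below 0 for the processing, chaperone and spermatogonial lists.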

How the data were processed

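RNA-seq was available for 1 library per line and SLAM-seq for 12 per line (chases of 0 to 1440 min). FPKM values were deposited by the authors for 13904 genes. The submitters' processing notes name kallisto and DESeq2, and the genome build and annotation of the RNA-seq table are not given in the sources used here. Reads were recovered as FPKM times the mean length of the annotated transcripts (GENCODE M21) times a depth fitted to make them whole. This gave whole numbers within 0.02 for 99.9% of values. The reads may be rounded estimates that divide shared reads among near-identical genes. Half-lives in minutes were deposited as other values, fitted by the authors with SlamDunk conversion rates and a first-order decay, with replicates collapsed and no error. The CRAC libraries were not used here. The line of each FPKM column and half-life table was taken from their names, which abbreviate the genotypes of the sample titles.

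Computed here were differences of log2(FPKM + 0.1), counts at 2-fold (half-lives 1.5-fold), exact binomial intervals of read ratios, shared sequences of 50 bases, and motif matches in GRCm38 and in RefSeq promoters of 300 bases. Python 3.11.15, numpy 2.4.6, pandas 2.3.3 and scipy 1.17.1 were used. The recovery of reads was checked on simulated data. Members, gene lists and rules were chosen with earlier results of these data known. Named are all variants, all members with a half-life, the 10 replication-dependent genes with the highest mean FPKM, the 5 largest differences in each direction, germ cell histone genes, genes listed at 0, *Nanos2*, and fixed genes and the 2 largest differences in each direction of the processing and chaperone lists. Other genes are named as examples or exceptions after their values were seen. Alternatives are in the closing section.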

Additional observations from a re-analysis of the deposited data

How the results depend on the processing

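With 1 library per line and 1 fitted half-life per transcript and line, precision is limited to counting error for FPKM and is unknown for half-lives. No paired analysis was possible because each line had 1 RNA-seq library and the half-lives came with their replicates collapsed by the authors. Of 102 alternative values, 83 stayed and 19 moved. Counts stayed if within 1.5 times the reported count, and medians if within an interval of the median taken over the genes. That interval treats genes as independent, which near-copies are not. A change of sign inside it was counted as staying, as for the variant median, which went from 0.10 to -0.10 with at least 200 reads. At a 4-fold limit, 1 replication-dependent gene was higher and 0 lower, 0 variant genes were higher and 0 lower, 0 processing genes were lower, and 0 chaperone genes were higher and 0 lower. Restricted to genes with at least 50% of unshared 50-base sequences, 5 of 34 replication-dependent genes (14.7%, beside 10.8% of all genes) were at least 2-fold higher and 1 lower (2.94%, beside 7.28%), and 0 of 10 variant genes were lower. The median of those 34 genes was 0.34. With the stem-loop required inside the annotated transcript, 10 of 45 were higher and 1 lower, of which the variant gene *H2afx* was 1 and replication-dependent genes 9 of 44, and the ratio of the class medians was 2.51 in the Nanos2TAG/TAG line and 2.69 in the Nanos2TAG/+ line. Many annotated histone transcripts end at the stop codon, so this setting moves them out of the class. With the stem-loop searched in the genome, chosen after seeing the data, 16 of 64 were higher and 2 lower. Of these 16, 15 were replication-dependent genes (of 63) and 1 was *H2afx*, while *Hist1h2an* was left out. As a ratio of summed FPKM, replication-dependent over variant genes gave 45.9 and 38.2. For variant genes, 1 was at least 2-fold higher with a pseudocount of 1 and 1 with at least 200 reads, where their median was -0.10. At a 2-fold limit 0 half-lives were shorter. Sums over near-identical genes and cluster blocks, families and pairs limited to mostly unshared sequence, and the poly(A) signal at annotated ends were also chosen after seeing the data.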
